A study of Mus musculus with 24 samples.

Results

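miR-142, miR-150 and miR-155 are 3 microRNAs (miRNAs) that are known for their high levels in white blood cells. They were taken by name (mir-142, mir-150 and mir-155) from a table of small RNA counts that lists 510 mouse miRNAs, of which 364 had at least 1 count, and all 3 were counted in every one of the 24 libraries. Mammary tissue was compared between tumor and normal mice at weeks 6, 8, 10 and 12 of age, with 3 mice and 3 libraries in each of the 8 groups. The tumor mice were females of the FVB strain that were heterozygous for the MMTV-PyMT transgene. In it, the mouse mammary tumor virus promoter drives the polyoma middle T oncoprotein in mammary epithelium. The study's methods give the stage as hyperplasia at week 6 and adenoma or mammary intraepithelial neoplasia (MIN) at week 8. They give early carcinoma at week 10 and late carcinoma with lung metastasis at week 12. The normal mice were age-matched FVB females without the transgene. The study's methods state that tissue of the hyperplasia and adenoma stages still held normal gland cells. For the carcinoma samples they report mostly tumor cells on stained sections. Stromal and muscle cells were few there, and inflammatory cells were described as very few. All tissue was snap-frozen and whole, so that fewer cells of a type and less of a miRNA per cell cannot be told apart. Whether lymph nodes were removed from the tissue is not given in the sources used here.

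A miRNA is cut from a hairpin transcript into a short RNA whose bases 2 to 8, the seed, pair with sites in messenger RNAs and lower the output of those messages. miR-142 is made in all lineages of blood cells and is widely used as a mark of hematopoietic origin. miR-150 is abundant in mature resting B and T lymphocytes, where it represses the transcription factor c-Myb, and its level drops when lymphocytes are activated. miR-155 is processed from the transcript of the Bic gene, is induced when B cells, T cells and macrophages are activated, and represses the phosphatase Ship1 among other targets.

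The mature sequences are shown because the seed sets what each miRNA can pair with, and because the counted rows name a hairpin and not its arms. They were read from RefSeq (GRCm38.p6) and are written 5′ to 3′ with the seed in capitals. miR-150-5p is named only.
miR-142a-5p: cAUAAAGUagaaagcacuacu
miR-142a-3p: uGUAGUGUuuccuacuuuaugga
miR-142b: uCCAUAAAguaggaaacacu
miR-150-3p: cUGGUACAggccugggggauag
miR-155-5p: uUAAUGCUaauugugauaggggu
miR-155-3p: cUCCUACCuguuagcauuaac
These 6 sequences have 6 different seeds, and none of the seeds was found in another of the 1679 mature names in the table. miR-142b comes from the opposite strand of the same hairpin, and its 20 bases are the reverse complement of a run in miR-142a-3p. The count table gives this locus as a row for miR-142, and whether the counting used strand is not given in the sources used here.

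The 3 genes lie on different chromosomes. In the mm9 build, the miR-142 hairpin is at chr11:87570366-87570429 on the plus strand, in an intron of the non-coding transcript A430104N18Rik. The miR-150 hairpin is at chr7:52377127-52377191 on the plus strand and overlaps no annotated gene. The miR-155 hairpin is at chr16:84714385-84714449 on the plus strand, in an exon of its own long non-coding host transcript.

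Libraries held between 1032241 and 3931375 counts, and 237 miRNAs had enough counts to be tested. Of the marker lists, mammary epithelium (the miR-200 family and others) had 8 of 10 miRNAs over-expressed in tumor at week 6 (29.1% of all tested miRNAs were), and fibroblast and smooth muscle had 5 of 5 under-expressed, as was the endothelial miRNA miR-126 (29.5% of all tested miRNAs were). Summed over its 10 miRNAs, the epithelial list was at 15326 to 30650 counts-per-million (CPM, after scaling by trimmed means, TMM) in normal and 57009 to 98234 CPM in tumor libraries. The 5 fibroblast and smooth muscle miRNAs summed to 158608 to 276050 CPM in normal and 70027 to 136934 CPM in tumor libraries. Most of that second sum was miR-143, with 8794419 counts over all libraries, and the next was miR-199a with 393985. For the mean over weeks, 3 of 3 erythroid miRNAs were under-expressed in tumor (median log2 fold change -1.23), 3 of 3 tested skeletal muscle miRNAs were (-3.16) and 2 of 3 adipocyte miRNAs were (-0.38), when 46.8% of all miRNAs were called lower. Called lower at weeks 6, 8, 10 and 12 were 1, 0, 1 and 3 erythroid and 0, 1, 0 and 3 skeletal muscle miRNAs. Of all miRNAs, 29.5%, 13.5%, 27.4% and 21.5% were called lower at these weeks. For the mean over weeks the epithelial list had 8 miRNAs called higher and 1 called lower, when 38.8% of all were called higher. The erythroid list summed to 7797 to 34556 CPM in normal and 2060 to 13679 CPM in tumor libraries. Most of this sum was miR-486, with 627178 counts over all libraries, beside 124412 for miR-451 and 14942 for miR-144. Skeletal muscle miRNAs were uneven among libraries, from 39.9 to 89332 CPM in sum. The part of these lists in the results below was not tested. All 53 listed miRNAs of chromosome X were at 0 in all 24 libraries.

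Levels are given in CPM, and log2 fold changes are of tumor over normal. In normal gland the median was 4365 counts a library for miR-142 and 2273 for miR-150. There miR-142 ranked between 52 and 65 and miR-150 between 50 and 81 by count among the listed miRNAs. In tumor, miR-142 held ranks 57 to 70 while miR-150 was at ranks 89 to 125. miR-155 ranked between 168 and 210 in all libraries and rested on 12 to 65 counts a library, against 1397 to 6381 for miR-142 and 125 to 6004 for miR-150. Counting error alone is wide for miR-155, and a library with 12 counts has an exact 95% Poisson interval of 6.2006 to 20.96 counts.

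**Figure D1:**
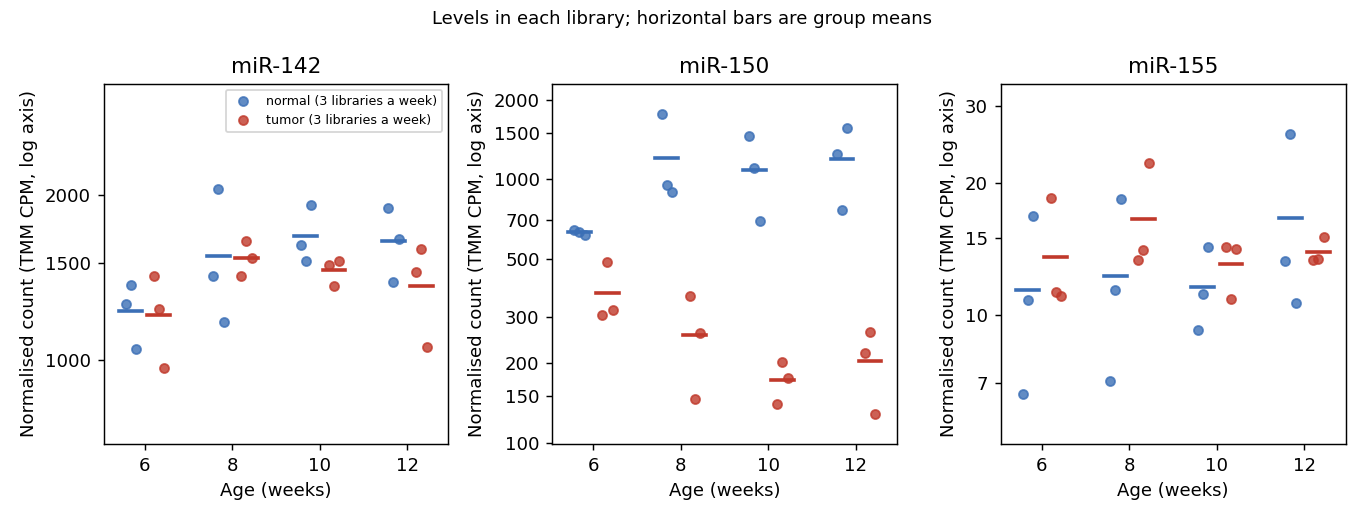
Normalised count (TMM CPM, log axis, with a different range in each panel) of miR-142, miR-150 and miR-155 in each library by age, for normal (blue) and tumor (red); points are libraries and horizontal bars are means of 3 libraries. The 12 tumor libraries of miR-150 lie between 128 and 484 CPM, below all 12 normal libraries, while the colours overlap at every age for miR-142 and miR-155.

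miR-150, the lymphocyte miRNA, was under-expressed in tumor at all 4 ages, and its deficit was 1.70-fold at week 6 and 4.87 to 6.33-fold at weeks 8 to 12. At week 6 the normal libraries were at 641, 631 and 616 CPM and the tumor libraries at 307, 484 and 318 CPM. At week 8 the normal libraries were at 1773, 953 and 891 CPM and the tumor libraries at 362, 147 and 260 CPM. The groups did not overlap at either age, as for 34.6% of tested miRNAs at week 6 and 19.8% at week 8 with tumor lower. At week 10 the normal libraries were at 1454, 1102 and 695 CPM and the tumor libraries at 141, 203 and 176 CPM. At week 12 the normal libraries were at 1242, 767 and 1566 CPM and the tumor libraries at 219, 263 and 128 CPM. Again the groups stood apart (31.6% of tested miRNAs with tumor lower at week 10 and 28.7% at week 12), and the highest tumor library of all ages, at 484 CPM, was below the lowest normal library, at 616 CPM. Such a separation of all 12 tumor libraries below all 12 normal libraries was found for 9.7% of the 237 tested miRNAs.

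In edgeR (quasi-likelihood test, p-values adjusted by Benjamini-Hochberg over the 237 miRNAs), the log2 fold change of miR-150 was -0.77 ± 0.23 (SE, n = 3 + 3) at week 6, and its adjusted p was 0.0232. It was the 1 member of 3 under-expressed at that week, against 29.5% of all tested miRNAs. The call at week 6 was not firm: it was lost without tumor replicate 1 (log2 fold change -0.63, adjusted p = 0.0910), without tumor replicate 3 (-0.58, adjusted p = 0.120) and without normal replicate 2 (-0.76, adjusted p = 0.0599). At week 8 the log2 fold change was -2.29 ± 0.45 (adjusted p = 0.00867 in edgeR), again for 1 of 3 members against 13.5% of all. For week 10 the value was -2.66 ± 0.31 (adjusted p = 4.87e-04 in edgeR), when 27.4% of all miRNAs were called lower. For week 12 it was -2.58 ± 0.39 (adjusted p = 0.00171 in edgeR), when 21.5% of all miRNAs were called lower. Counting either direction, miR-150 was the 1 member called each week, beside 58.6%, 35.4%, 60.3% and 50.6% of all miRNAs at weeks 6, 8, 10 and 12. From week 8 on, the call held without any single library, with log2 fold changes between -2.99 and -1.82.

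The deficit of miR-150 was among the largest of all miRNAs at the later ages. Ordered from the most under-expressed, it was number 76 of 237 at week 6, number 5 at week 8, number 3 at week 10 and number 8 at week 12. Averaged over the 4 weeks, its log2 fold change was -2.05 ± 0.19 (95% interval -2.44 to -1.66, n = 12 + 12) with an adjusted p of 6.99e-09 in edgeR, when 46.8% of miRNAs were called lower and the median of all was -0.15. The libraries had been run in 2 lanes, each with 6 normal and 6 tumor libraries. Within lane 1 the mean difference over weeks was -2.27 and within lane 2 it was -1.87 on the log2 scale.

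**Figure D2:**
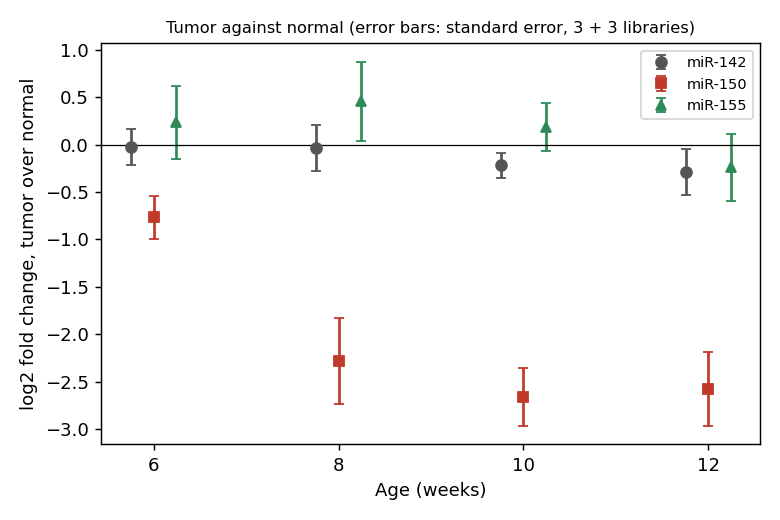
Log2 fold change of tumor over normal at each age for miR-142 (grey circles), miR-150 (red squares) and miR-155 (green triangles); error bars are standard errors from 3 + 3 libraries and the line at 0 marks equal levels. miR-150 lies at -0.77 at week 6 and between -2.66 and -2.29 later, while miR-142 and miR-155 stay between -0.29 and 0.46.

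miR-142, the general mark of blood cells, was at nearly the same level in tumor and normal mammary tissue. At week 6 the normal libraries were at 1262, 1370 and 1048 CPM and the tumor libraries at 1423, 1240 and 963 CPM. At week 8 they were at 1423, 2056 and 1173 CPM in normal and at 1425, 1652 and 1535 CPM in tumor. At both ages the 2 sets of libraries were mixed. At week 10 the normal libraries were at 1621, 1515 and 1917 CPM and the tumor libraries at 1489, 1362 and 1517 CPM. At week 12 the normal libraries were at 1894, 1384 and 1664 CPM and the tumor libraries at 1445, 1591 and 1054 CPM. The means of the later ages were lower in tumor, and the groups still overlapped at each.

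The log2 fold changes of miR-142 were -0.02 ± 0.19, -0.04 ± 0.24, -0.22 ± 0.13 and -0.29 ± 0.24 at weeks 6, 8, 10 and 12. None passed the test, with adjusted p-values in edgeR of 0.913, 0.901, 0.176 and 0.348. The mean over weeks was -0.13 ± 0.10 (adjusted p = 0.233 in edgeR), with a 95% interval of -0.34 to 0.08, and so a difference of the size seen for miR-150 lies outside it. The median of all tested miRNAs was between -0.19 and -0.09 at these ages, and scaling by library size alone moved that median by -0.14, -0.13, -0.02 and 0.18 at weeks 6, 8, 10 and 12. The direction of the miR-142 difference at week 6 turned with the scaling and without single libraries, and at week 8 it turned without single libraries. Within lane 1 its mean difference over weeks was -0.16, and within lane 2 it was -0.05 on the log2 scale.

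miR-155, the miRNA of activated lymphocytes and macrophages, was scarce in all groups and did not pass the test at any age. At week 6 the normal libraries were at 6.61, 10.8 and 16.9 CPM and the tumor libraries at 18.4, 11.3 and 11.04 CPM. At week 8 they were at 7.09, 11.4 and 18.4 CPM in normal and at 13.4, 14.1 and 22.2 CPM in tumor. The libraries of both groups were mixed, and the normal libraries covered more than a doubling from lowest to highest. At week 10 the normal libraries were at 9.24, 11.2 and 14.3 CPM and the tumor libraries at 14.3, 10.9 and 14.1 CPM. At week 12 the normal libraries were at 13.3, 25.9 and 10.7 CPM and the tumor libraries at 13.3, 13.4 and 15.1 CPM. Normal replicate 2 of week 12 was the highest library of all, and the 3 tumor libraries of that age lay close together.

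The log2 fold changes of miR-155 were 0.23 ± 0.39, 0.46 ± 0.42, 0.19 ± 0.25 and -0.24 ± 0.35 at weeks 6, 8, 10 and 12, with adjusted p-values in edgeR of 0.605, 0.387, 0.516 and 0.590. Its mean over weeks was 0.17 ± 0.19 (adjusted p = 0.420 in edgeR) with a 95% interval of -0.24 to 0.57. At week 8 the 95% interval of the difference ran from -0.51 to 1.42. The lanes gave different directions, with a mean difference over weeks of 0.47 in lane 1 and -0.14 in lane 2 on the log2 scale, and without replicate 1 of every group the mean over weeks was -0.10. Over all 237 miRNAs, 85.7% were called in 1 direction or the other for the mean over weeks, and miR-142 and miR-155 were among those not called.

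Whether the members differed from each other in their change was tested by the ratio of their counts within a library, which does not depend on scaling. miR-150 lost ground against both other members. The ratio of miR-150 to miR-142 was between 0.363 and 1.246 in the normal libraries, with a median of 0.622, and between 0.0890 and 0.390 in the tumor libraries, with a median of 0.158. The groups overlapped over all ages only through normal replicate 3 of week 10 and tumor replicate 2 of week 6, and within a week they did not overlap. The mean difference over weeks was -1.93 on the log2 scale, a 3.80-fold lower ratio in tumor, with weekly values of -0.77, -2.28, -2.39 and -2.27. In a two-sided exact permutation test of the genotype labels within weeks this gave p = 1.25e-05, the smallest that the 160000 arrangements allow, and 3.75e-05 after adjustment over 3 ratios.

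In normal libraries the ratio of miR-150 to miR-155 lay between 29.6 and 250.2, and in tumor libraries between 8.50 and 42.8. Its mean difference was -2.27 on the log2 scale, a 4.84-fold lower ratio in tumor, with an exact permutation p of 2.5e-05 and 3.75e-05 after adjustment. The ratio of miR-155 to miR-142 was 0.00498 to 0.0187 in normal and 0.00799 to 0.0145 in tumor libraries. Its weekly libraries overlapped except at week 10, where the 3 tumor libraries were above the 3 normal ones. The mean was 0.35 higher in tumor on the log2 scale, which did not pass the test (exact permutation p = 0.123, adjusted p = 0.123). In the plot of the ratios, all tumor libraries but replicate 2 of week 6 lie below the normal range for both ratios that contain miR-150, and all tumor libraries lie inside it for the third.

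**Figure D3:**
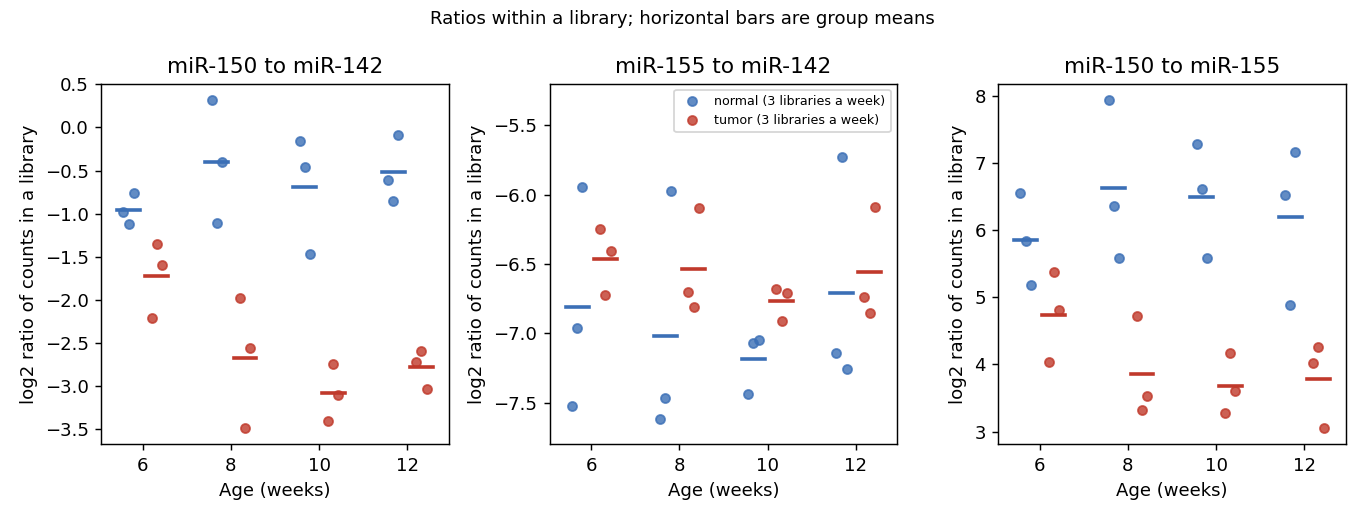
Log2 of the ratio of counts of a pair of members within each library by age, for normal (blue) and tumor (red); points are libraries and horizontal bars are means of 3 libraries. The ratio of miR-150 to miR-142 is lower in tumor by 0.77 at week 6 and by 2.27 to 2.39 later, and the ratio of miR-155 to miR-142 overlaps between normal and tumor at weeks 6, 8 and 12.

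The means of miR-150 at weeks 8, 10 and 12 were above that of week 6 in normal gland and below it in tumor. Neither series passed the test over weeks. In normal gland its mean was 629 ± 12.4 CPM (SD, n = 3) at week 6 and 1206 ± 492 CPM, 1083 ± 380 CPM and 1192 ± 402 CPM at weeks 8, 10 and 12. In tumor its mean was 369 ± 99.1 CPM at week 6, 256 ± 108 CPM at week 8, 173 ± 31.3 CPM at week 10 and 203 ± 68.7 CPM at week 12. The 3 week 6 normal libraries agreed within a few percent, while those of the later ages spread widely. In the order of the 8 group means, the 4 normal groups came first. Neighbours overlapped except normal week 10 and normal week 6, and normal week 6 and tumor week 6.

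The change of the tumor deficit with age was tested itself. Between weeks 12 and 6 the log2 fold change of miR-150 differed by -1.78 ± 0.51 (95% interval -2.85 to -0.71), with an unadjusted p of 0.00250 in edgeR that did not hold after adjustment over all miRNAs (adjusted p = 0.118). This was number 5 of 237 by p, in a comparison in which 0.422% of miRNAs were called. Over all weeks together the unadjusted p was 0.00565 and the adjusted p was 0.446 in edgeR. No miRNA was called there (9 had an unadjusted p under 0.05, and DESeq2 also called none). miR-142 and miR-155 had adjusted p-values of 0.578 and 0.574 for week 12 against week 6 in edgeR.

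Within a genotype, no member passed the test over the 4 ages. In normal gland the adjusted p-values over weeks were 0.401 for miR-142, 0.257 for miR-150 and 0.704 for miR-155 in edgeR, when 13.9% of miRNAs were called. In tumor they were 0.804, 0.249 and 0.937, when edgeR called none of the 237 (39 had an unadjusted p under 0.05 and DESeq2 called 10). The lowest adjusted p of a later week against week 6 was 0.0726, for miR-150 in normal gland at week 12, where its log2 fold change was 0.92 ± 0.36. This result depended on the tool, the libraries and the lane. With DESeq2 the same contrast had an adjusted p of 0.0431. Without replicate 2 of every group the lowest was 0.0327, for miR-142 in the same contrast in edgeR. Weeks 6 and 8 had more libraries in lane 1, and weeks 10 and 12 had more in lane 2. With lane as a covariate the lowest was 0.0547, also for miR-142 in that contrast in edgeR. miR-150 was also 1.09 lower on the log2 scale in tumor at week 10 than at week 6, with an adjusted p of 0.137 in edgeR. For miR-142 in normal gland the mean was 1227 ± 164 CPM at week 6 and 1684 ± 208 CPM at week 10, with an adjusted p of 0.210 in edgeR. In the order of its 8 group means, as in that of miR-155, all neighbours overlapped.

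Among libraries of the same group, miR-150 and miR-155 went in opposite directions in normal gland. Deviations of log2 CPM from the group mean were compared over 12 libraries of each genotype for the 3 pairs of members, 6 relations in all. For miR-150 and miR-155 in normal gland, Pearson's r was -0.78 and Spearman's rho was -0.85, each with a two-sided exact permutation p of 7.72e-04, the smallest that the 1296 matchings within groups allow, and 0.00463 after adjustment. Without the 2 libraries farthest from the median of miR-150, r was -0.74. In tumor the same pair had r = -0.27 and rho = -0.44 (exact permutation p = 0.492 and 0.233, adjusted p = 0.690 and 0.495). The difference between normal and tumor was not tested.

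The sequencing lane moved with this relation. In normal gland, lane 2 libraries were higher in miR-155 (r = 0.67 of lane with its deviations) and lower in miR-150 (r = -0.47). With lane and group means both removed, r was -0.71, with no test. Over the 6 normal libraries of lane 1, without regard to age, r was -0.02 (exact permutation p = 0.972), and over the 6 of lane 2 it was -0.64 (exact permutation p = 0.162). Group means were not removed from these 2 within-lane values, so differences between ages are mixed in. They therefore do not test the relation of deviations, and each group had only 1 or 2 libraries in a lane. The other 4 relations did not pass the test, with r of -0.0044 and -0.41 for miR-142 with miR-150 and miR-155 in normal gland and 0.22 and 0.31 in tumor, rho between -0.36 and 0.42, and adjusted permutation p-values of 0.495 to 1.

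**Figure D4:**
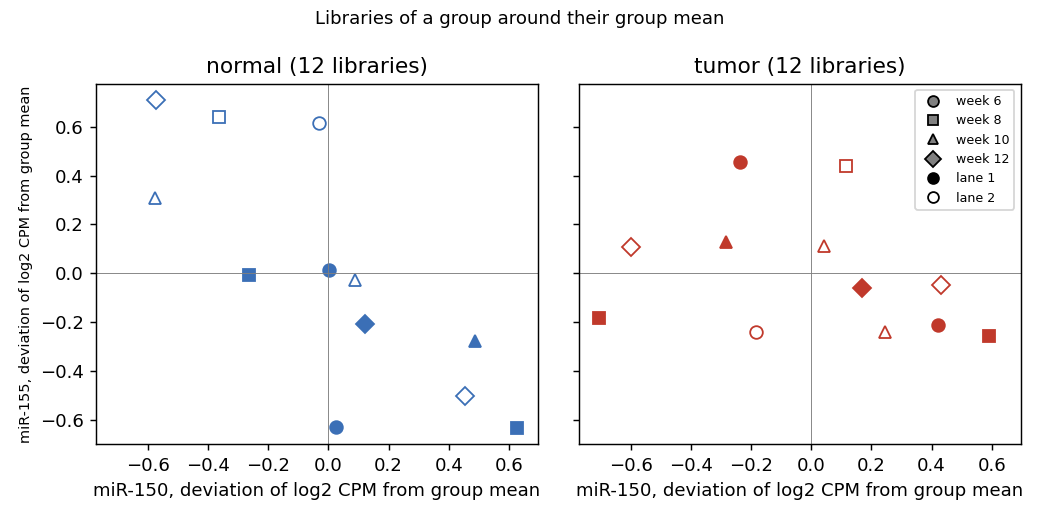
Deviation of log2 CPM from the group mean for miR-155 (vertical) against miR-150 (horizontal) in 12 normal libraries (left) and 12 tumor libraries (right); marker shapes give the age and filled or open markers give lane 1 or lane 2. Normal libraries run from upper left to lower right (r = -0.78), with the highest 4 all from lane 2, and tumor libraries show a weaker relation (r = -0.27).

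The miRNAs most like each member across the 24 libraries were different for the 3 members. These correlations describe the libraries, which share genotype, age and lane, and carry no p. Over all 24 libraries miR-150 was most like miR-126, the endothelial miRNA (r = 0.97), then miR-708 (r = 0.95) and the smooth muscle and fibroblast miRNA miR-143 (r = 0.95). For deviations from the 8 group means its nearest miRNAs were miR-126 (r = 0.88), miR-10a (r = 0.82) and miR-26b (r = 0.78). miR-142 was most like miR-146a, a miRNA induced by the NF-κB pathway in immune cells, both over all libraries (r = 0.60) and within groups (r = 0.66). Next for miR-142 were miR-339 (r = 0.58) and miR-26b (r = 0.51) over all libraries and miR-467e (r = 0.66) and miR-1937b (r = 0.65) within groups. For miR-155, miR-21 (r = 0.63), miR-205 (r = 0.59) and miR-19b (r = 0.56) were nearest over all libraries, and let-7i (r = 0.89), miR-20a (r = 0.86) and miR-18a (r = 0.85) within groups. miR-142 was number 103 of 236 and miR-155 number 142 in the order of likeness to miR-150 over all libraries.

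miR-126 was under-expressed in tumor at each week too. Its mean was 23104 ± 2865 CPM (SD, n = 3) in normal and 14458 ± 3344 CPM in tumor at week 6, and 31992 ± 7699 CPM in normal and 10935 ± 2107 CPM in tumor at week 12. The log2 fold changes of miR-126 were -0.67 ± 0.20, -1.46 ± 0.36, -1.39 ± 0.21 and -1.57 ± 0.29 at weeks 6, 8, 10 and 12, with adjusted p-values in edgeR of 0.0221, 0.0182, 0.00161 and 0.00420. The ratio of miR-150 to miR-126 within a library, looked at after these values were seen and so not tested, differed by -0.11 at week 6 on the log2 scale (tumor minus normal), where the groups overlapped. It differed by -0.76, -1.25 and -1.01 at weeks 8, 10 and 12, where they did not overlap.

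The other miRNAs known for leukocytes did not move as a group. Of 8 on that list, 6 had enough counts to be tested. For the mean over weeks 4 were over-expressed and 2 under-expressed in tumor, against 38.8% and 46.8% of all miRNAs. The median log2 fold change of the 6 was 0.81, beside -0.15 for all tested miRNAs. Several of them are also made in epithelium and other cells, so that their levels do not stand for leukocytes alone.

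miR-146a and miR-146b, which share the role of damping NF-κB signaling, went opposite ways. miR-146a was at 2150 ± 434 CPM in normal and 1254 ± 144 CPM in tumor at week 12, with a mean log2 fold change over weeks of -0.58 ± 0.11 (adjusted p = 8.98e-05 in edgeR). miR-146b was at 3423 ± 563 CPM in normal and 29408 ± 2073 CPM in tumor at week 12, and its mean log2 fold change was 3.17 ± 0.13 (adjusted p = 6.53e-14 in edgeR). In single weeks miR-146a did not pass the test at weeks 6 and 8 (adjusted p = 0.0884 and 0.134 in edgeR). It passed at weeks 10 and 12 (adjusted p = 0.0357 and 0.0273 in edgeR). With scaling by library sizes its adjusted p in edgeR was 0.0287 at week 6 and 0.0618 at week 12. The near-identical mature sequences of the pair can share reads. miR-511, which lies in the mannose receptor gene of macrophages, was at 128 ± 4.85 CPM in normal and 76.7 ± 17.3 CPM in tumor at week 12. Its mean log2 fold change was -0.79 ± 0.11 (adjusted p = 3.25e-06 in edgeR). miR-511 did not pass the test at week 8 (adjusted p = 0.236 in edgeR). Its call at week 12 (adjusted p = 0.0389 in edgeR) was lost with scaling by library sizes (adjusted p = 0.221).

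miR-181a and miR-181b, known for setting the sensitivity of the T cell receptor, were over-expressed in tumor. Their mean log2 fold changes were 0.95 ± 0.07 and 0.90 ± 0.12 (adjusted p = 3.97e-10 and 7.41e-07 in edgeR), and both passed the test at each week. miR-181a lost the call at week 6 with a replicate block (adjusted p = 0.0609) and with scaling by library sizes (adjusted p = 0.0886), and miR-181b lost it at week 8 with library sizes (adjusted p = 0.113). miR-342, from an intron of the Evl gene, had a mean log2 fold change of 0.71 ± 0.14 (adjusted p = 1.61e-04 in edgeR). Without each replicate number this mean was between 0.43 and 0.95. In single weeks miR-342 passed the test at week 12 only. Its adjusted p in edgeR was 0.102, 0.0662 and 0.0949 at weeks 6, 8 and 10, and 0.0261 at week 8 with a replicate block. miR-147, which is induced in macrophages by Toll-like receptors, had between 0 and 45 counts a library and was not tested. miR-223, the defining miRNA of neutrophils and monocytes, was listed at 0 in all 24 libraries along with every listed miRNA of chromosome X, and no level is read from that.

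**Figure D5:**
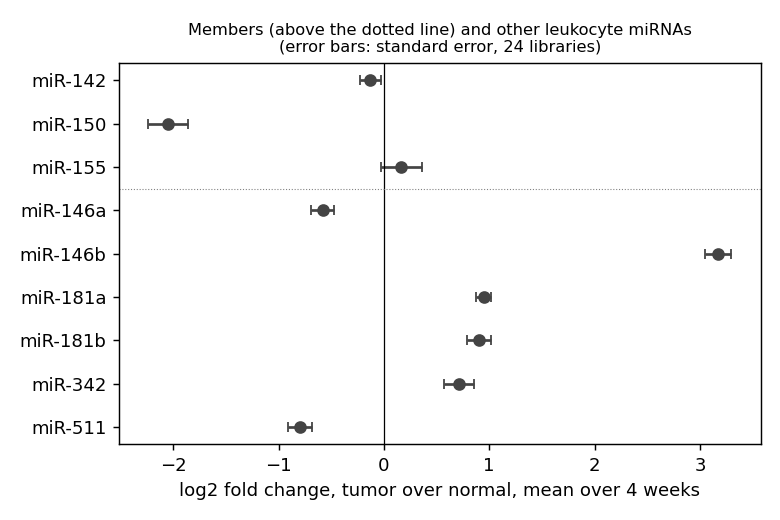
Mean log2 fold change over the 4 weeks, tumor over normal, for the 3 members (above the dotted line) and 6 other leukocyte miRNAs; points are estimates from 24 libraries and error bars are standard errors. miR-150 at -2.05 is the lowest and miR-146b at 3.17 the highest, and miR-142 and miR-155 lie nearest to 0.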

How the data were processed

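Small RNA was sequenced from snap-frozen mammary tissue of PyMT and FVB mice (TruSeq small RNA kit, single-end). The study's methods describe trimming of adapters, alignment of reads of 17 to 27 bases with Bowtie and counting of those overlapping a miRBase miRNA by more than 50%. The deposited values are counts per miRNA, not normalized. The labels name mm9 and the study's methods mm10. Whether the deposited counts are those of the described run is not given in the sources used here. Groups came from the labels. edgeR 4.0.16 (R 4.3.3, TMM, quasi-likelihood, Benjamini-Hochberg, threshold 0.05) tested 237 miRNAs kept by filterByExpr, per week on 6 libraries and over weeks on all 24. CPM, log2 with a prior count of 2 for correlations, were computed from the counts; ratios added 0.5 to each count. Alternatives included DESeq2 1.42.0, other scalings and filters, lane, and left-out libraries. The code was checked on simulated counts. Named miRNAs were the 3 members, 8 other leukocyte miRNAs, and the 3 most correlated with each member by either measure; the members and lists were chosen with earlier results of these data known. Poisson intervals cover counting error only, since reads carry no molecular identifiers.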

Additional observations from a re-analysis of the deposited data

How the results depend on the processing

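miR-150 was under-expressed in tumor at weeks 8, 10 and 12 and over all weeks in each alternative run, with log2 fold changes between -2.72 and -2.23 at these weeks (without single libraries, -2.99 to -1.82) and between -2.15 and -1.99 over all weeks (without each replicate number, -2.29 to -1.95). Its call at week 6 was lost with edgeR's exact test (-0.77, adjusted p = 0.0544) and with a single fit of all 24 libraries (-0.77, adjusted p = 0.0753), and leaving out a library gave -0.94 to -0.58. miR-142 at week 6 turned from -0.02 to 0.013 with DESeq2 size factors, 0.014 with DESeq2, 0.031 without the 5 most counted miRNAs in the scaling, 0.00094 with no filter and 0.043 with at least 10 counts in every library, and ranged from -0.14 to 0.21 without single libraries; at week 8 it ranged from -0.18 to 0.16. Without single libraries miR-155 spanned -0.040 to 0.63 in week 6 and -0.49 to 0.17 in week 12, and without each replicate number its mean over weeks spanned -0.10 to 0.29. Scaling by library sizes turned the week 12 against week 6 difference of miR-142 to 0.065 and the correlation of miR-150 with miR-155 in tumor to 0.038. The cause of these changes was not tested.

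Same-numbered tumor and normal libraries deviated together in 10 of 12 pairs (r over 0.1, lowest 0.03, mean 0.41), though not every library was most like its own number. Replicate 1 was all in lane 1 and replicate 3 all in lane 2. The main fits and the permutations within weeks did not use the numbers as pairs, and a replicate block was run as an alternative. With a replicate block, calls at week 8 went from 84 to 131 and calls for week 12 against week 6 from 1 to 2; the block changed no call of a member. Without single libraries, calls numbered 78 to 150 in week 6 (139 with all), 50 to 81 in week 8 (84 with all), and for week 12 from 74 to 120 (120 with all); without each replicate number, 0 to 16 for weeks in normal (33 with all), 0 to 4 for weeks in tumor (0 with all) and 0 to 2 for week 12 against week 6. That last count was 0 with library sizes, 3 with DESeq2, and 2 with the minimum of 10 counts and with lane. Calls over weeks were 18 in normal with the minimum of 10 counts, and in tumor 3 with that minimum, 3 with DESeq2 size factors and 10 with DESeq2. The lowest adjusted p of a member within a genotype was 0.0431 in DESeq2 (miR-150, normal, week 12) and 0.0327 to 0.132 without each replicate number, passing without replicate 2 (miR-142, normal, week 12). miR-155 had 12 to 65 counts a library, and how far counting error sets its spread was not tested. The removal of lane means from the correlation and the within-lane values were chosen after seeing the data.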
